A study of Mus musculus with 103 samples.

Results

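Calorie restriction was compared with normal feeding in the liver of young mice, at each of 6 times of day and on the mean over those times. The comparison used every array that its title places in the young normal-diet or the young calorie-restricted liver group, 57 in all, of which 25 were on the normal diet and 32 under restriction. The remaining 46 arrays of the series are of old mice. All mice were C57BL6/J, a common inbred laboratory strain, with no transgene or mutation named. They were kept in 12 h of light and 12 h of darkness, had eaten their diet for 25 weeks, and their livers were taken every 4 h (ZT0 is lights on and ZT12 lights off). The degree of restriction and the hour of feeding are not given in the sources used here. The normal-diet arrays came from 13 females and 12 males with a median age of 52 weeks (23 to 57), 4 to 5 arrays per time, and the restricted arrays from 18 females and 14 males with a median age of 51 weeks (47 to 88), 5 to 6 per time. The ages of 2 young arrays go against their title, 23 weeks for normal-diet ZT4 replicate 4, which is less than the stated time on the diet, and 88 weeks for restricted ZT16 replicate 5. The old mice set beside them at the end had a median age of 88 weeks on each diet (22 arrays on the normal diet and 24 under restriction).

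Calorie restriction lowers food intake without malnutrition and lengthens life in many laboratory animals. In the liver, the fed state favours making fatty acids and triglycerides, and the fasted state favours releasing glucose and breaking down amino acids. The liver also has a circadian clock, a loop in which BMAL1 and CLOCK switch on the Per and Cry genes whose products switch them off again, and feeding time resets it. Restricted mice usually eat their ration soon after it is given and then fast.

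Each value below is a log2 hybridisation intensity, so values are compared between arrays for the same gene and not between genes. Differences are restricted minus normal diet, with the standard error (SE), and were called at a Benjamini-Hochberg adjusted p below 0.05 in limma across 11787 genes. Whether each array of a group is a separate animal is not in the labels, and the p-values then cover only the variation among these arrays, which may be technical. Array medians ran from 5.064 to 5.167 in the young arrays in log2 units, and the hepatocyte gene Alb was high on every array (12.38 to 12.57 on the normal diet and 12.32 to 12.61 under restriction). The deposited values carry no difference between the sexes in sex-linked genes. On 3 normal-diet arrays (ZT12 replicates 1 and 2 and ZT20 replicate 3) those genes stood apart, and the restricted array ZT0 replicate 4 lay farthest from its group (SD of its deviations 0.261).

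The diets differed in many genes by small amounts. On the mean of the 6 times, 5152 of the 11787 genes were called (43.7% of all tested), with a median size of 0.181 on the log2 scale, and 79 of them differed by more than 2-fold. Of the calls, 2401 were higher (20.4%) and 2751 lower (23.3%) under restriction. That split depends on scaling: it was 3162 higher and 2354 lower after quantile normalization, and 2970 and 2489 after median centring of every array. At the single times the calls numbered 2445 at ZT0 (20.7%), 1808 at ZT4 (15.3%), 1052 at ZT8 (8.93%), 2907 at ZT12 (24.7%), 1410 at ZT16 (12%) and 1170 at ZT20 (9.93%). Higher calls made up 10.3%, 5.56%, 4.03%, 9.14%, 5.6% and 3.91% of the genes from ZT0 to ZT20, and lower calls 10.5%, 9.78%, 4.9%, 15.5%, 6.36% and 6.02%. At ZT12 there were 1077 higher and 1830 lower calls, against 1605 and 1473 after quantile normalization, and at ZT4 there were 655 and 1153 against 890 and 929. Without the 3 arrays of outlying sex-linked genes the ZT12 calls numbered 1663. The counts at ZT0, ZT8 and ZT12 also rest on single normal-diet arrays, with 1367 at ZT0 without replicate 4, 473 or 662 at ZT8 without replicate 1 or 3, and 1715 at ZT12 without replicate 2.

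A gene could differ all day or at some hours. At all 6 times 95 genes were called, of which 78 were lower and 15 higher at each time, and 2 were lower at 4 times and higher at the other two. The 15 higher genes were Pck1, Enho, Igfbp2, Gpx6, Slco2a1, Rdh16f2, Cth, Fam234b, Agxt, Cxcl12, Cyp2c23, Scnn1a, Klb, Prep and Atp5o. The 2 genes of mixed direction, like the 15, were named after their values were seen. They were the histone chaperone gene Anp32e, which ran from -0.64 at ZT12 to 0.45 at ZT16, and Cct4, a subunit of the cytosolic chaperonin, which ran from -0.68 at ZT0 to 0.42 at ZT20. The values of all 25 normal-diet arrays lay above those of all 32 restricted arrays in 4 genes (0.0339% of those tested), which were picked out after their values were seen. These were Pygl, the liver glycogen phosphorylase (difference -0.54), Serpina12, which encodes the adipokine vaspin (-2.68), Tbc1d31 (-1.51) and Wfdc2 (-1.47). Serpina12 had the largest mean decrease of the genes named here, with 6.74 to 9.69 (median 9.13) on the normal diet and 4.76 to 6.70 (median 6.09) under restriction.

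Genes of fatty acid and triglyceride synthesis were lower under restriction almost without exception. Of the 20 measured genes of this pathway 19 were lower and none higher, against 23.3% lower among all genes, and the median difference was -0.85 against 0.0067 over all genes tested. Only Dgat2, which adds the last acyl chain to triglyceride, was not called (0.07). Elovl6, which elongates long-chain fatty acids, ran from 5.78 to 9.85 with a median of 8.57 on the normal diet, and from 4.73 to 7.28 with a median of 6.26 under restriction. The ranges overlapped through a low normal-diet array at ZT0, and at the 5 later times every restricted array lay below every normal-diet array. The mean difference was -2.22 (SE 0.16, 4.65-fold, adjusted p 2.86e-21). No overlap of the diets at a single time, here and in genes below, was found in 9.45% (ZT4) to 15% (ZT12) of all genes.

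The central enzymes of the pathway followed the same order. Fasn, fatty acid synthase, ran from 7.95 to 10.44 (median 9.68) on the normal diet and from 6.86 to 9.06 (median 8.03) under restriction, a difference of -1.52 (SE 0.12). It was separated between the diets at 4 of the 6 times, with some overlap at ZT0 and ZT16. Me1, the malic enzyme that supplies NADPH, differed by -1.92, and Thrsp, a thyroid-responsive lipogenic gene, by -1.66. The acetyl-CoA carboxylases Acaca and Acacb differed by -1.16 and -1.28, the desaturases Fads2 and Scd1 by -1.04 and -0.53, and Pklr, the liver pyruvate kinase, by -1.03. The transcription factor gene Mlxipl, whose product ChREBP drives this programme in the presence of glucose, was lower by less (-0.17, SE 0.05). The list's median was least negative at ZT0 (-0.52) and most negative at ZT4 (-0.99). A diet effect that differed with time was called for 6 of the 20 genes, against 20.7% of all genes. One was Acly, which makes cytosolic acetyl-CoA from citrate and differed by -1.57 at ZT4 and 0.18 at ZT20 (adjusted p 0.0014).

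**Figure D1:**
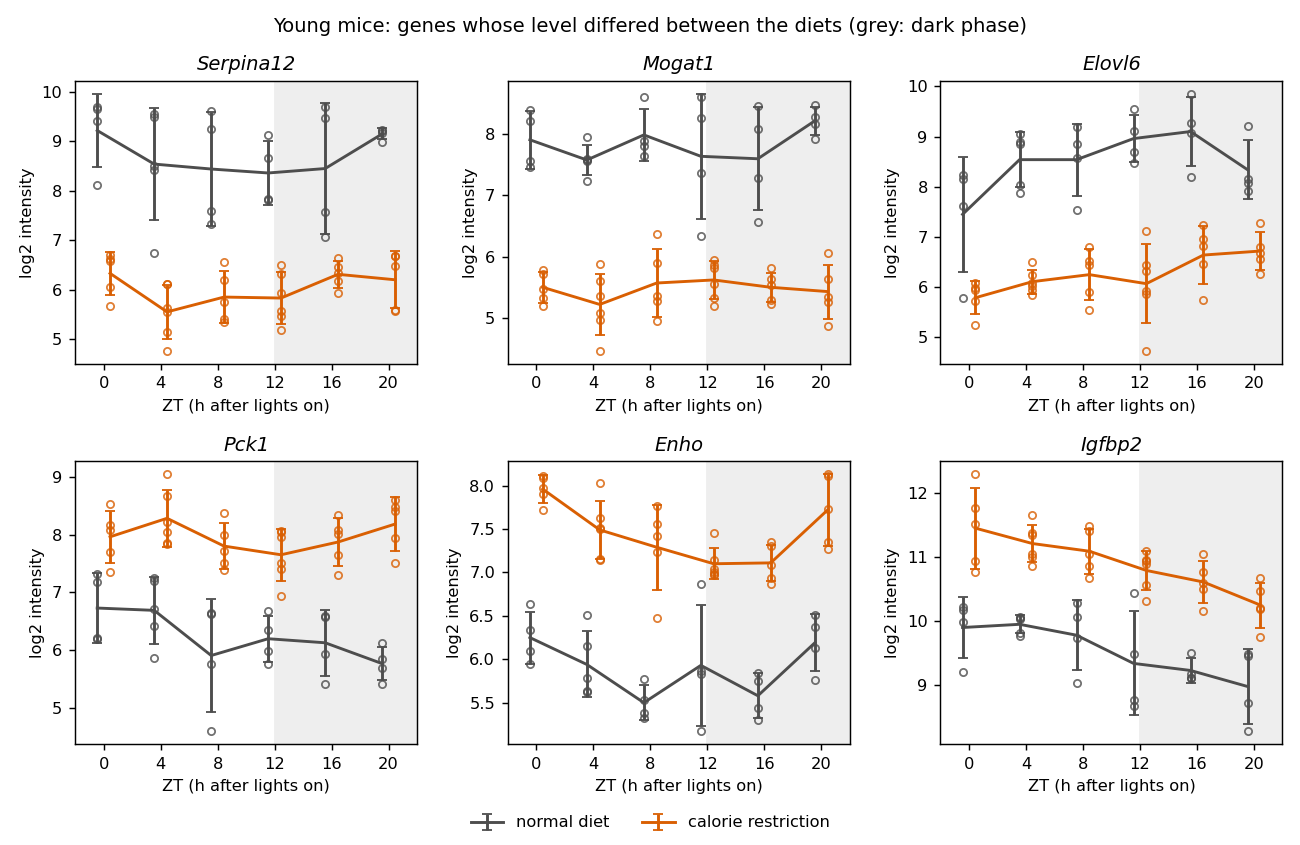
Log2 intensity on every young array against time of day (ZT, hours after lights on) for 6 genes, with the mean and SD of each diet at each time. Serpina12, Mogat1 and Elovl6 are lower under restriction and Pck1, Enho and Igfbp2 higher at all 6 times. The gap between the plotted means is not equal at each time, which alone does not show a diet effect that differs with time. Pck1 means on the normal and restricted diet are 6.73 and 7.96 at ZT0, and 5.77 and 8.18 at ZT20.

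Lipid droplet and lipid uptake genes were lower as well. Of 20 measured genes, 16 were lower (23.3% of all genes) and 2 higher, with a median of -0.53. The 2 higher calls, Dgat1 (0.11) and the hormone-sensitive lipase gene Lipe (0.08), were lost with the replicate number as a block (adjusted p 0.0822 and 0.0782), and that of Lipe also without a sex term (0.0514), without a filter (0.0528) and with only the groups compared (0.0544). Mogat1, a monoacylglycerol acyltransferase, ran from 6.33 to 8.61 (median 7.89) on the normal diet and from 4.46 to 6.37 (median 5.42) under restriction. Those ranges overlapped only between 6.33 and 6.37 across the whole day and were separate within every time. Cidea, a droplet-fusion gene that rises with liver fat, differed by -2.51 (SE 0.35). Its normal-diet arrays spread from 5.77 to 10.35 and its restricted arrays from 3.45 to 7.03, so the diets overlapped at every time but ZT12. The phospholipase gene Pnpla3 differed by -1.94, the fatty acid carrier gene Fabp5 by -1.88, the fatty acid uptake gene Cd36 by -1.66, the droplet-budding gene Fitm1 by -1.26 and the lipase inhibitor gene G0s2 by -1.05. The droplet coat genes differed less: Plin2 by -0.61, Plin4 by -0.67, Plin3 by -0.29 and Plin5 by -0.28.

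Genes of sterol synthesis moved differently from those of fatty acids. Of 17 measured, 7 were higher and 3 lower on the mean, against 20.4% and 23.3% of all genes. Stard4 (0.49), Cyp51 (0.38, but -0.05 in females alone) and Srebf2, which encodes the sterol-sensing factor SREBP-2 (0.30), were among the higher genes, and Fdps (-0.55), Sc5d (-0.50) and Mvd (-0.37) were the lower ones. The list's median was 0.46 at ZT20, with 7 genes called higher (3.91% of all genes at that time), and -0.16 at ZT12. A diet effect that differed with time was called for 4 of the 17 genes, near the 20.7% of all genes. On the normal diet 14 of the 17 had a daily rhythm, against 31.4% of all genes. In 8 of the 9 that were rhythmic on both diets the fitted peak came earlier under restriction, with a median of 4.09 h earlier over the 9. Over the 2454 genes rhythmic on both diets 68.7% peaked earlier, with a median of 0.98 h earlier. A difference in rhythm was called for 6 genes, against 9.87% of all genes, and that count fell to 2 when single arrays were left out.

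Fatty acid oxidation did not move as a block. Of 20 measured genes 2 were higher and 8 lower, against 20.4% and 23.3% of all genes, with a median of -0.08. Vnn1, a pantetheinase gene and classical PPARalpha target, differed by -1.23, Acaa1a by -0.72, Pdk4 by -0.62 and Fgf21, the hepatic fasting hormone, by -0.43. Acadvl (0.22) and Acaa2 (0.08) were higher, but Acaa2 was not called after quantile normalization (adjusted p 0.0655) or without replicate 2 or 4 (0.164 and 0.257). Cpt1a, the gate for fatty acid entry into mitochondria, was close to 0 at ZT4, ZT8 and ZT12 and was called lower at ZT16 (-0.66) and ZT20 (-0.48). Among 3 measured ketone genes only Slc16a6, a ketone exporter gene, was called (-0.43). Of the 10 measured genes that make or use acetyl-CoA 7 were lower (23.3% of all genes), among them the pyruvate dehydrogenase subunit gene Dlat (-0.51) and citrate synthase, Cs (-0.45).

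Glucose production genes split. Pck1, phosphoenolpyruvate carboxykinase and the first committed step of gluconeogenesis, ran from 4.60 to 7.31 (median 6.21) on the normal diet and from 6.93 to 9.04 (median 8.01) under restriction. It was separate between the diets at each of the 6 times, and the difference was 1.72 (SE 0.14, 3.28-fold), largest at ZT20 (2.42). G6pc, the glucose-6-phosphatase gene that releases free glucose, behaved otherwise. On the normal diet it stayed near 12 all day, with 11.99 ± 0.42 (SD, n = 4) at ZT8. Under restriction it was 10.81 ± 0.48 (n = 6) at ZT4 and 9.89 ± 0.63 (n = 5) at ZT8, against 12.17 ± 0.15 (n = 5) at ZT0 and 12.05 ± 0.18 (n = 6) at ZT12. At ZT8 the 5 restricted arrays read 8.95, 9.55, 10.11, 10.35 and 10.48, and the 4 normal-diet arrays 11.50, 11.92, 12.01 and 12.53, with no overlap, as for 14.4% of all genes at that time. The differences were -1.28 at ZT4 and -2.10 at ZT8 and within 0.25 of 0 at the other 4 times. The fitted daily amplitude was 0.07 on the normal diet and 1.07 under restriction (adjusted p of the difference in rhythm 0.000969). Of the 9 measured genes of this pathway 2 were higher, Pck1 and Gpt (0.31), and G6pc was the only one lower. Among all genes 20.4% were higher and 23.3% lower, so the higher count is near its share. Of 11 genes of glycolysis and sugar entry 5 were lower and 1 higher: Pklr, the fructokinase gene Khk (-0.34), the glucokinase regulator gene Gckr (-0.25), the glucose transporter gene Slc2a2 (-0.21) and Gapdh (-0.11) were lower, and Pgk1 (0.06) was higher. Pgk1 was not called after quantile normalization.

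Amino acid breakdown and the urea cycle were higher. Of 19 measured genes of amino acid catabolism 12 were higher and none lower, against 20.4% higher among all genes. Cth, the cystathionine gamma-lyase that makes cysteine and hydrogen sulfide, led with 0.91 (SE 0.07). It ran from 8.95 to 10.18 (median 9.54) on the normal diet and from 9.87 to 11.28 (median 10.49) under restriction, and was called at all 6 times. Agxt, which detoxifies glyoxylate, differed by 0.75, Hal, which opens histidine breakdown, by 0.70, and Amdhd1, further along the same route, by 0.45. Tat, Oat, Prodh, Hgd, Ftcd, Gldc and Bckdha were not called. All 7 urea cycle genes were higher in the fit of all arrays, by 0.46 for Ass1, 0.33 for Nags, 0.32 for Asl, 0.23 for the gateway enzyme Cps1, 0.21 for Otc, 0.16 for the ornithine carrier Slc25a15 and 0.14 for Arg1. Ass1 was not called without replicate 1 (adjusted p 0.145), and Slc25a15 without replicate 1, 2 or 3 (0.0629 to 0.125). For both lists the median was largest at ZT0 (0.39 and 0.41). Differences as small as that of Arg1 are close to the median SD between arrays within a time (0.15 on each diet).

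**Figure D2:**
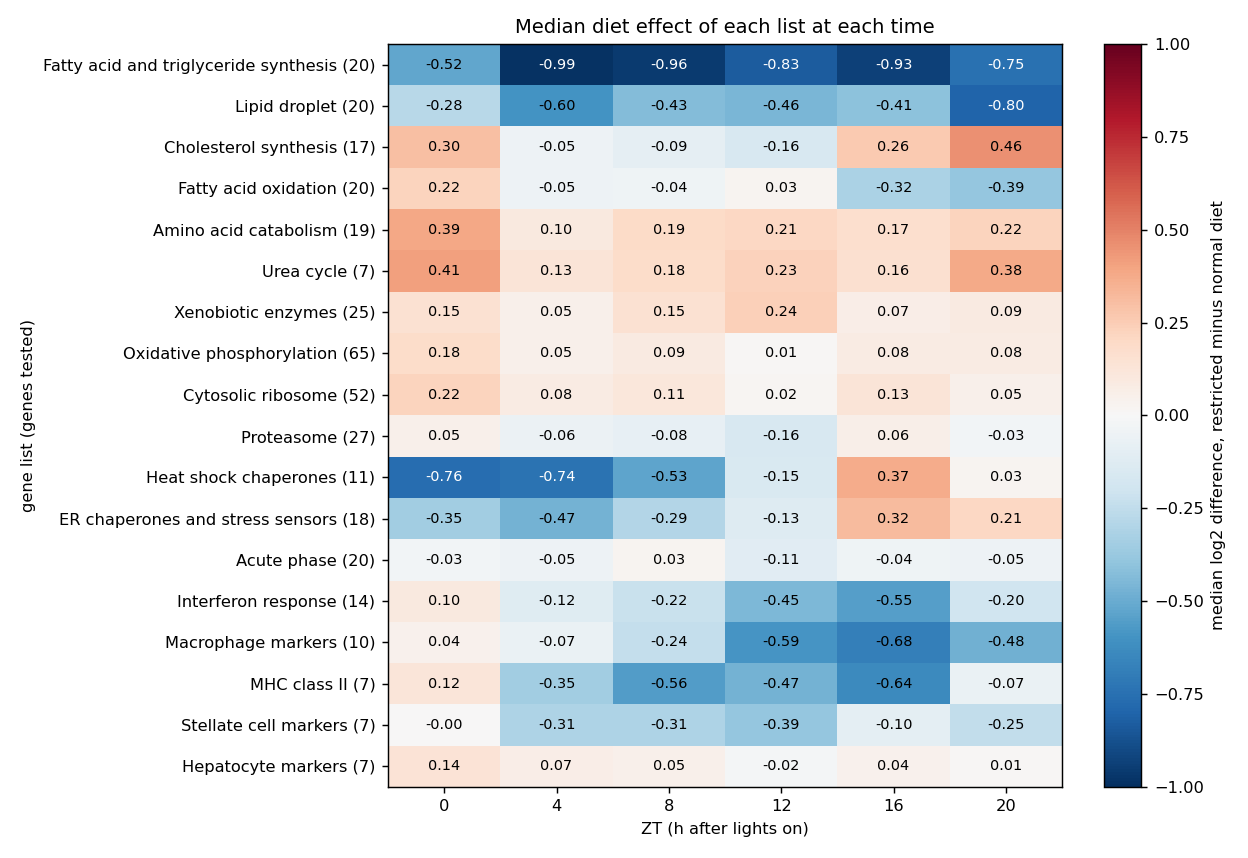
Median log2 difference between restricted and normal diet (colour and number) for 18 gene lists at each ZT, with the number of genes tested in parentheses. Lipid synthesis is below 0 at all 6 times, and the heat shock and ER chaperone rows go from below 0 at ZT0 to above 0 at ZT16.

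Genes of the growth hormone and insulin axis moved in both directions. Of 17 measured, 9 were higher and 4 lower, against 20.4% and 23.3% of all genes, so the lower count is near its share. Igfbp2, an IGF carrier protein gene, ran from 8.28 to 10.44 (median 9.51) on the normal diet and from 9.75 to 12.29 (median 10.91) under restriction, with a difference of 1.37 (SE 0.11) that lay between 1.26 and 1.55 at each time. A high normal-diet array overlapped the restricted arrays at ZT12. The growth hormone feedback genes Socs2 and Cish were higher by 1.36 (SE 0.19) and 0.48 (SE 0.13). Both were called at ZT4, ZT8 and ZT12 (Socs2 2.11, 1.67 and 2.11) and not at ZT16 (0.11 and -0.19). A diet effect that differed with time was called for Cish (adjusted p 0.011) and not for Socs2 (0.086). Igfals (0.44), Igf1 (0.18) and Insr (0.18) were higher, and the growth hormone receptor gene Ghr (-0.26), Stat5a (-0.33), Igfbp1 (-0.37) and Grb10 (-0.14) were lower. Igfbp1 was not called with the replicate number as a block (adjusted p 0.0682), without the 2 arrays of conflicting age (0.0532) or without replicate 1, 2, 4 or 5 (0.0523 to 0.147), nor Grb10 after median centring (0.0525) or without replicate 1, 3 or 5 (0.0613 to 0.236). Of 5 thyroid-related genes the 3 response genes were lower: Dio1, a deiodinase and standard readout of thyroid hormone in liver (-1.83), Thrsp and Me1. The receptor genes Thra and Thrb were not called.

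Liver genes that differ between the sexes were measured in values without a sex difference, so they are given only as differences. Of 13 male-biased genes 7 were lower (23.3% of all genes), among them Cyp4a12a (-1.49), Elovl3 (-1.28) and Slco1a1 (-0.88). Of 10 female-biased genes 5 were higher (20.4% of all genes), among them Cyp39a1 (0.93) and Cyp2b9 (0.90), and Cyp17a1 was lower (-1.19). Of 25 genes of xenobiotic metabolism 13 were higher and 5 lower, against 20.4% and 23.3% of all genes. Gsta2, a glutathione transferase gene, differed by 1.39 (2.61-fold), Cyp2c37 by 0.98, Cyp1a2 by 0.88 and the receptor gene Nr1i3 (CAR) by 0.38, while Gstm2 (-0.60) and Gstm3 (-0.45) were lower. Near-identical members of the Cyp2c, Cyp3a and Gst families can share probes, so these values are uncertain as to member. Of 13 antioxidant genes 2 were higher and 3 lower, close to those shares, the latter including the regulator Nfe2l2 (NRF2, -0.65) and Srxn1 (-0.63).

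Bile acid genes moved in both directions. In 22 measured genes there were 6 higher and 5 lower, near the 20.4% and 23.3% of all genes. The classic synthesis gene Cyp7a1 was higher (0.67, SE 0.22), and so were Fgfr4 (0.46) and its coreceptor gene Klb (0.48), which take the FGF15 signal that restrains Cyp7a1. Cyp8b1, which directs synthesis to cholic acid, was lower (-0.70). The uptake carrier Slc10a2 was lower (-1.98, SE 0.11) and separate between the diets at each of the 6 times, with 5.17 to 7.92 on the normal diet and 3.93 to 6.21 under restriction. The anion carriers Slco1a4 and Slco1a1 moved apart, by 1.07 and -0.88.

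Other genes with large increases had varied roles. Enho, which encodes the secreted peptide adropin, ran from 5.17 to 6.87 (median 5.83) on the normal diet and from 6.48 to 8.13 (median 7.39) under restriction, and the diets were separate at each time (1.54, SE 0.11). Slc22a26, an organic anion transporter, had the largest increase (1.77, SE 0.28, 3.4-fold). Its arrays spread widely, from 3.01 to 7.0 on the normal diet and from 2.62 to 8.96 under restriction, and it was called at 3 times. Slco2a1, a prostaglandin transporter gene (1.18, SE 0.08), and Gpx6, a glutathione peroxidase gene (1.27, SE 0.12), were called at 6 times, and the vasopressin receptor gene Avpr1a (1.13, SE 0.12) at 5. Pcp4l1 differed by 1.45, with 0.77 at ZT0 and 2.46 at ZT16. Among the genes with large decreases, Rarres1 differed by -2.29 (SE 0.16), with 7.81 to 10.02 on the normal diet and 5.23 to 8.19 under restriction, and the sterol-binding gene Osbpl3 by -1.83 (SE 0.18), from -1.21 at ZT0 to -2.81 at ZT12.

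Heat shock chaperones, mostly cytosolic, differed between the diets in their daily profile. These proteins keep others folded, and their genes are switched on by the heat shock factor HSF1 through repeats of GAA and its complement. Of 11 measured genes, 10 passed the test of a diet effect that differs with time, against 20.7% of all genes, and 10 passed the test of a difference in 24 h rhythm, against 9.87%. Hspa8 was the exception in both. At ZT0, ZT4 and ZT8 the list's medians were -0.76, -0.74 and -0.53, with 9, 10 and 7 genes called lower, against 10.5%, 9.78% and 4.9% of all genes at those times. At ZT16 the median was 0.37, all 11 estimates were above 0 and 3 were called higher (5.6% of all genes). On the mean of the day 8 were lower (23.3% of all genes) and none higher, and 6 were lower after quantile normalization.

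Hspa1b, the stress-inducible HSP70 gene, showed the widest swing. At ZT0 the normal-diet arrays read 6.34, 6.48, 7.48 and 8.20 and the restricted arrays 4.10, 4.11, 5.19, 5.54 and 5.64. At ZT16 the order was turned, with 6.07, 6.52, 7.90 and 8.57 against 7.33, 8.16, 8.18, 8.65 and 9.39. The diets did not overlap at ZT0, ZT4 and ZT8, a state found in 11.3%, 9.45% and 14.4% of all genes, and overlapped at ZT16. The differences were -2.22, -1.58, -1.75, 0.04, 1.09 and -0.11 from ZT0 to ZT20, and those at the first 3 times were called. The fitted amplitude was 0.55 (SE 0.24) on the normal diet, not called as rhythmic, and 1.78 (SE 0.21) under restriction with a peak at ZT14.4. Hspa1b has a near-identical neighbour, Hspa1a, and the probes may read both.

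Its partners peaked in the dark phase under restriction too. Hsp90aa1, the inducible HSP90 gene, had an amplitude of 0.48 peaking at ZT21.9 on the normal diet and 1.20 peaking at ZT18.2 under restriction. Hspb1, the small heat shock protein HSP27, went from 0.46 at ZT22.0 to 1.28 at ZT19.0, and Stip1, which couples HSP70 to HSP90, from 0.30 at ZT23.6 to 0.66 at ZT18.6. In the 6 genes that were rhythmic on both diets the amplitude was larger under restriction and the peak earlier by a median of 4.74 h, against 0.98 h over the 2454 genes rhythmic on both diets, of which 68.7% peaked earlier. One of the 6, the co-chaperone gene Bag3, moved by 11.99 h, where earlier and later cannot be told apart, and the other 5 moved by 3.01 h to 6.56 h. Dnaja1 and Dnajb1, the HSP40 partners of HSP70, were nearly flat on the normal diet (0.09 and 0.11) and rhythmic under restriction (0.63 and 0.41). Hspe1, the mitochondrial co-chaperonin, was the reverse, with 0.16 on the normal diet and 0.07 under restriction.

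The start sites of these genes are shown because the members moved together. Each stretch is the 150 bases before the annotated start, from RefSeq on GRCm38.p6, written 5′ to 3′ on the gene's strand, and capitals mark GAANNTTC, the core of the heat shock element.
Hspa1b (chr17:34959239-34959388, minus strand): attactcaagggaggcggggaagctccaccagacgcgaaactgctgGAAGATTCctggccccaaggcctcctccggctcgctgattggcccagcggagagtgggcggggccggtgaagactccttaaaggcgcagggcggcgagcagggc
Dnaja1 (chr4:40722318-40722467, plus strand): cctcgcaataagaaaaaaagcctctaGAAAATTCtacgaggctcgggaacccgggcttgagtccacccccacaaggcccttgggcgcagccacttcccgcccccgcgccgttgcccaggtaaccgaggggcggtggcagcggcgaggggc
Hspb1 (chr5:135887769-135887918, plus strand): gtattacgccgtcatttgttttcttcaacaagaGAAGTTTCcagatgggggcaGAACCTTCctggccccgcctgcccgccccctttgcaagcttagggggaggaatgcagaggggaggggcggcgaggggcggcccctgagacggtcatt
The motif, searched on both strands from 250 bases before to 50 after the start, was present in 6 of the 9 heat shock genes with a promoter in the table (Bag3, Chordc1, Dnaja1, Hspa1b, Hspb1 and Hspe1) and in 570 of 9474 tested genes with a promoter (6.02%). Of those 570 genes, 65 had a called difference in rhythm (11.4%), near the 9.87% of all genes. Of the 564 outside the list it was 59. A match is a description of the letters and not a measured site of binding.

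Chaperones of the endoplasmic reticulum (ER) also differed in their daily profile. They fold secreted proteins and are induced by the unfolded protein response through ATF6 and XBP1. Of 18 measured genes 16 passed the test of a diet effect that differs with time and 14 the test of a difference in rhythm (20.7% and 9.87% of all genes). At ZT4 the median was -0.47, with 13 called lower and none higher (9.78% of all genes lower), and at ZT16 it was 0.32, with 10 called higher and none lower (5.6% of all genes higher). On the mean of the day 6 were lower and 1, Xbp1, higher (0.19), against 23.3% and 20.4% of all genes.

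Hyou1, an ER relative of HSP70, read 9.12, 9.19, 9.40, 9.66 and 10.23 on the normal diet at ZT4 and 7.85, 8.09, 8.66, 8.72, 8.83 and 8.88 under restriction. At ZT16 it read 8.24, 8.31, 8.69 and 8.80 against 8.88, 9.72, 9.93, 10.06 and 10.11. The diets were separate at both times, in opposite order. Such separation was found in 9.45% of all genes at ZT4 and 12.7% at ZT16. Its amplitude was alike (0.76 and 0.80), and the fitted peak lay at ZT1.0 (SE 0.57 h) on the normal diet and at ZT19.5 (SE 0.47 h) under restriction. Hspa5, the ER chaperone BiP, peaked at ZT1.3 and ZT20.3, Creld2 at ZT0.6 and ZT18.1, Manf at ZT1.4 and ZT20.7, and Dnajb11 at ZT1.1 and ZT20.6. Sdf2l1 had the largest amplitudes (0.87 and 1.13), with differences of -0.82 at ZT4 and 1.13 at ZT16. Of 16 genes rhythmic on both diets 15 peaked earlier under restriction, with a median of 4.61 h earlier over the 16. Over all genes rhythmic on both diets these values were 68.7% and 0.98 h. The remaining ER gene, Dnajb9, peaked 3.36 h later without a called difference. Herpud1, Xbp1, Dnajb9 and Pdia3 did not pass the test of a difference in rhythm.

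**Figure D3:**
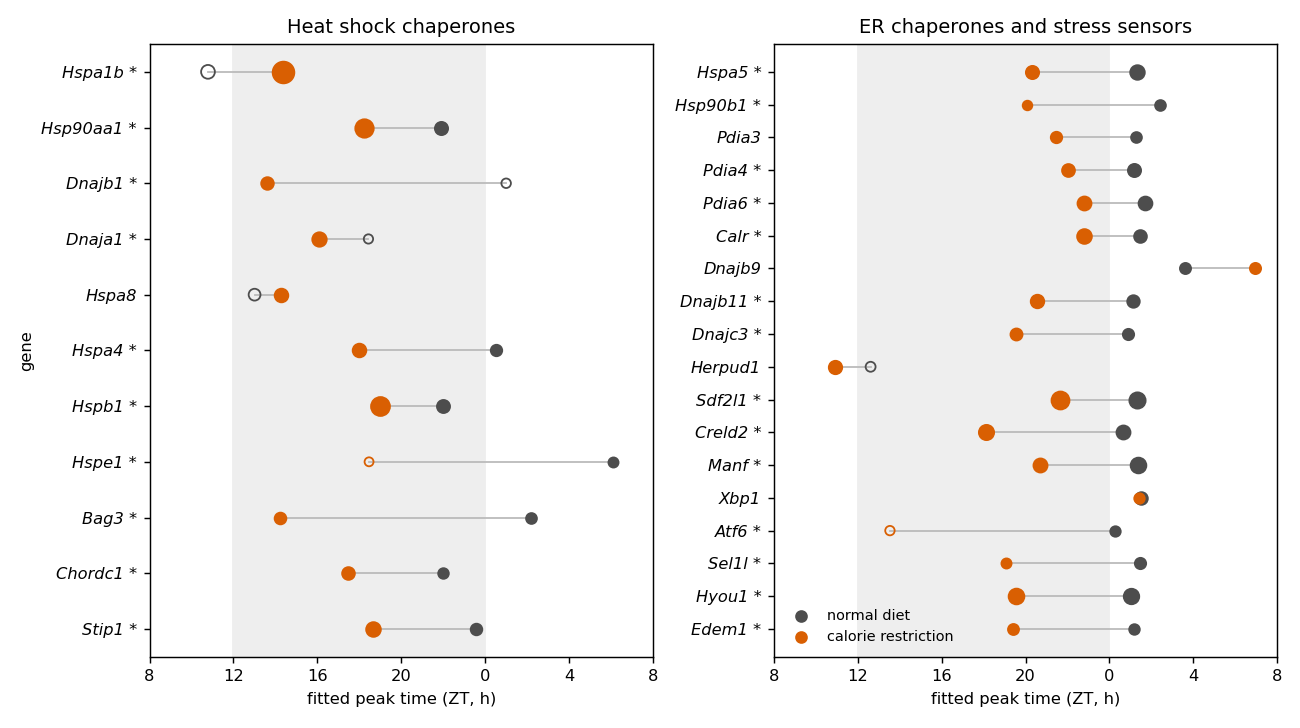
Fitted peak time (ZT, h) of each heat shock and ER gene on the normal diet (grey) and under restriction (orange); point area rises with amplitude, open points are not called as rhythmic, an asterisk marks a called difference in rhythm, and grey shading is the dark phase. Most orange points lie in the dark phase and most grey points of ER genes lie shortly after ZT0.

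Promoters of ER genes carried a different motif. Capitals mark the ER stress element, which is CCAAT and CCACG with 9 bases of any kind between them, in the same kind of stretch.
Hspa5 (chr2:34771940-34772089, plus strand): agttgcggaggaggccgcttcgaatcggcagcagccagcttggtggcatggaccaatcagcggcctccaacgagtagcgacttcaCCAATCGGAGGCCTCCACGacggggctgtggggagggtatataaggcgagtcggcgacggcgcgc
Creld2 (chr15:88819496-88819645, plus strand, match on the other strand): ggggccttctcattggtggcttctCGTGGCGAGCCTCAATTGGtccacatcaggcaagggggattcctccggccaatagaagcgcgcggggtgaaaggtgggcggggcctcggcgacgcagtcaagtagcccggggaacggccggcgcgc
Pdia6 (chr12:17266439-17266588, plus strand): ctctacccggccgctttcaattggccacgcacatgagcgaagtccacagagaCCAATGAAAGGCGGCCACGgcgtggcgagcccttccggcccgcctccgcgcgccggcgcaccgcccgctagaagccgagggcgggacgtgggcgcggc
It was found in 6 of the 15 ER genes with a promoter (Calr, Creld2, Dnajc3, Hsp90b1, Hspa5 and Pdia6) and in 17 of the 9474 tested genes (0.179%). Of those 17 genes 9 had a called difference in rhythm (52.9%), against 9.87% of all genes. The ER genes just named made up 6 of the 9, and outside the list the count was 3 of 11. None of the 15 ER promoters held the heat shock motif and none of the 9 heat shock promoters held the ER stress element.

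**Figure D4:**
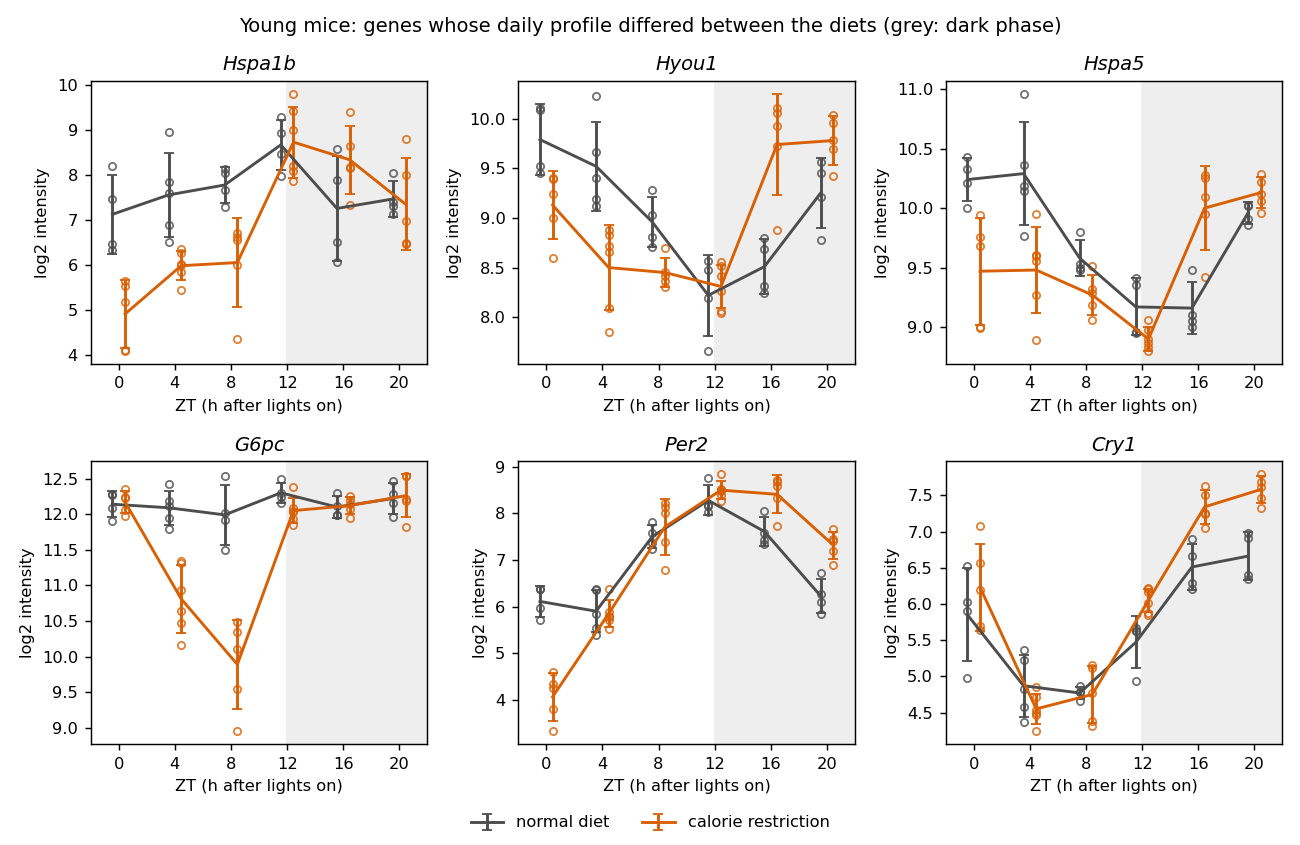
Log2 intensity on every young array against time of day (ZT, hours after lights on) for 6 genes, with the mean and SD of each diet at each time. Hspa1b, Hyou1 and Hspa5 are lower under restriction early in the light phase and Hyou1 and Hspa5 higher at ZT16, G6pc dips at ZT4 and ZT8 under restriction, and Per2 and Cry1 swing more widely.

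Core clock genes had larger fitted amplitudes under restriction. Of 18 measured clock genes 15 were rhythmic on the normal diet (31.4% of all genes), 16 under restriction (49.3% of all genes) and 15 on both. The amplitude was larger under restriction in 14 of those 15, against 1477 of 2454 genes rhythmic on both diets, and the list's median amplitude was 0.75 on the normal diet and 1.23 under restriction. The peak was earlier in 13 of the 15, with a median of 0.73 h earlier over the 15 (68.7% and 0.98 h over the 2454 genes rhythmic on both diets), in a range from 1.78 h earlier to 0.72 h later. A diet effect that differed with time was called in 11 genes (20.7% of all genes) and a difference in rhythm in 4 (9.87% of all genes): Per2, Cry1, Arntl and Nr1d2. Nr1d2 was not called without replicate 1 (adjusted p 0.129). Those 4 span the loop, as Arntl encodes BMAL1, Per2 and Cry1 its repressors, and Nr1d2 the receptor REV-ERBbeta that restrains Arntl.

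Per2 showed the largest change of the clock genes at a single time. At ZT0 it read 5.71, 5.97, 6.38 and 6.38 on the normal diet and 3.32, 3.80, 4.26, 4.34 and 4.60 under restriction, and at ZT20 5.85, 6.10, 6.27 and 6.71 against 6.89, 7.20, 7.41, 7.45 and 7.66. The diets were separate at both times (11.3% and 10.6% of all genes), with restriction lower at ZT0 (-2.05) and higher at ZT20 (1.09). From ZT4 to ZT12 they differed by 0.22 at most. The amplitude was 1.24 (SE 0.17) and 2.03 (SE 0.15), with peaks at ZT12.5 and ZT13.2. Its adjusted p for a difference in rhythm was 0.0252, and between 0.0822 and 0.0967 without the arrays of replicate 1, 2, 4 or 5, so that call rests on the full set. Cry1 read 6.34, 6.40, 6.91 and 6.98 at ZT20 on the normal diet and 7.33, 7.46, 7.62, 7.69 and 7.79 under restriction, with amplitudes of 1.03 and 1.62.

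The other arm of the loop ran with it. Arntl had amplitudes of 0.69 and 1.06 and peaks at ZT21.6 and ZT20.4, and was higher at ZT0 (0.57) and ZT16 (0.54) and lower at ZT4 (-0.51). Nr1d2 had amplitudes of 1.35 and 2.16 and was lower by -1.50 at ZT16. Nfil3, a repressor of clock output, was higher at ZT0 (0.80) and ZT12 (0.75) and lower at ZT4 (-1.15) with no called difference in its 24 h curve. On the mean of the day Usp2 (0.58), Per1 (0.44), Cry1 (0.40), Tef (0.32), Cry2 (0.29) and Csnk1e (0.09) were higher and Bhlhe40 (-0.48) and Noct (-0.33) lower, of which Csnk1e was not called with the replicate block (adjusted p 0.0612), against 20.4% higher and 23.3% lower among all genes. The other 10 clock genes had no called mean difference, among them Per2, Arntl and Rora, which was flat (amplitude 0.04 and 0.06).

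The E-box CACGTG, which BMAL1 and CLOCK bind, is shown for Cry1 in capitals.
Cry1 (chr10:85185055-85185204, minus strand): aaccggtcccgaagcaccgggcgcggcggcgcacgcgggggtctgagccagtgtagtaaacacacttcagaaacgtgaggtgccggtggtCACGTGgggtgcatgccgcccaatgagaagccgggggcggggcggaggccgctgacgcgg
It was present in the promoters of 4 of 16 clock genes (Ciart, Cry1, Per1 and Tef) and of 944 of 9474 tested genes (9.96%). The D-box TTATGNAA was present in Noct, Per1 and Per3 and in 195 genes (2.06%).

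Many more genes were rhythmic under restriction than on the normal diet. A 24 h rhythm was called for 3696 genes on the normal diet (31.4%) and 5806 under restriction (49.3%), with 25 and 32 arrays respectively, so the tests differ in power. Of these, 2454 were shared, and 1163 genes (9.87%) had a called difference in rhythm itself. Among those 1163, 454 were rhythmic on both diets, 608 were called under restriction only, 88 on the normal diet only and 13 on neither. In the 2454 shared genes the amplitude was larger under restriction in 1477 and smaller in 977, with a median ratio of 1.11. The proteasome degrades misfolded proteins. Of 27 measured subunit genes 20 were rhythmic on both diets, 18 of these peaked earlier under restriction, with a median of 2.26 h over the 20 (68.7% and 0.98 h over all genes rhythmic on both diets), and 6 had a called difference in rhythm, or 3 after quantile normalization. Psmd14, a deubiquitinating subunit gene, was lower at ZT12 (-0.69) and 0.10 at ZT16.

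Genes with the widest change of the diet effect over the day included several outside these lists. Cdkn1a, the cell cycle inhibitor p21, read 8.79, 9.31, 9.78, 9.87 and 9.88 on the normal diet at ZT4 and 5.43, 5.69, 6.81, 6.83, 6.88 and 7.14 under restriction. The diets were separate, as for 9.45% of all genes at that time, and differed by -3.07. At ZT16 the difference was -0.22 with 10.60 ± 0.91 (SD, n = 4) and 10.37 ± 0.41 (n = 5). Tubb2a, a tubulin gene, was lower at ZT4, ZT8 and ZT12 (-1.43, -1.70 and -1.93) and near 0 at ZT0 (-0.01), and its amplitude went from 0.41 to 1.40. Slc30a10, a manganese exporter gene, and Slc41a2, a magnesium transporter gene, dipped at the same 3 times (at ZT12 -1.99 and -1.75). Arrdc3, an arrestin-domain gene, was lower from ZT12 to ZT20 (-1.49, -1.32 and -1.37). Cyp26b1, which breaks down retinoic acid, was lower at ZT4 (-1.22) and higher at ZT12 and ZT16 (1.13 and 1.22), and its fitted peak moved from ZT22.4 to ZT17.1. Sphk2, a sphingosine kinase gene with a strong rhythm on both diets (amplitude 1.86 and 2.56), was higher at ZT4 (1.42) and lower at ZT16 (-1.12). Foxq1, a forkhead factor gene, was higher at ZT4 (2.45), and Camk1d, a calcium-dependent kinase gene, at ZT20 (1.21).

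For the remaining genes of this kind the spread was larger. Car3, a carbonic anhydrase gene, had the widest range of the diet effect (3.46, adjusted p 0.0155), from -2.29 at ZT12 to 1.17 at ZT20. At ZT12 its normal-diet arrays read 6.67, 6.96, 7.05 and 7.10 and its restricted arrays 4.01, 4.32, 4.40, 4.93, 5.04 and 5.16, with no overlap, as for 15% of all genes at that time. At ZT8 the restricted arrays read 4.74, 4.80, 4.96, 8.07 and 8.66 (SD 1.95, n = 5). The call of a diet effect that differs with time was not stable: its adjusted p was 0.0709, 0.168 and 0.0867 without the arrays of replicates 1, 4 and 5. Bcl6, a male-biased repressor gene, ranged by 3.06 (adjusted p 0.0394) with the call lost in 4 of the 6 fits that left out a replicate number (0.0534 to 0.142). Ppp1r3g, a glycogen-targeting phosphatase subunit gene, was -1.49 at ZT4 and 1.38 at ZT12. The metallothionein gene Mt1 was 1.31 at ZT8 and -1.38 at ZT16, and Gpcpd1, a glycerophosphocholine phosphodiesterase gene, was 1.76 at ZT12. The call of Mt1 was lost without replicate 4 (0.117) or 5 (0.0685), and that of Gpcpd1 without replicate 1 (0.085) and without the 3 arrays of outlying sex-linked genes (0.0615).

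Part of the macrophage, MHC class II, interferon and stellate genes were lower under restriction, where 23.3% of all genes were lower. In bulk liver, fewer cells of a type and less RNA per cell cannot be told apart. Of 10 macrophage markers 6 were lower, among them Adgre1, which encodes F4/80 (-0.59, SE 0.16), Cd5l (-0.46) and the complement genes C1qa, C1qb and C1qc (-0.38, -0.40 and -0.29, the last not called with the replicate number as a block, adjusted p 0.0679). The Kupffer cell markers Clec4f (-0.17) and Vsig4 (-0.27) were not called. Summed on the linear scale, the 10 markers ran from 1460 to 6340 (median 2670) on the normal diet and from 1110 to 4520 (median 2090) under restriction, with wide overlap. In males alone none was called lower and 1 higher, and in females alone 5 were lower. Of 7 MHC class II genes 5 were lower, led by H2-Eb1 (-0.60) and Cd74 (-0.52), with sums from 813 to 3500 on the normal diet and from 623 to 2040 under restriction. Of 14 interferon response genes 8 were lower, led by Oasl2 (-0.60) and Gbp2 (-0.47). For the macrophage and interferon lists the medians were nearest to 0 at ZT0 (0.04 and 0.10) and lowest at ZT16 (-0.68 and -0.55). The MHC class II median was also lowest at ZT16 (-0.64) but nearest to 0 at ZT20 (-0.07, against 0.12 at ZT0). The stellate median was lowest at ZT12 (-0.39). None of the genes of these lists passed the test of a diet effect that differs with time, against 20.7% of all genes. The part that marker levels have in the differences of other lists was not tested.

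Acute phase genes did not move together. Of 20 measured 8 were lower and 4 higher, against 23.3% and 20.4% of all genes, so the higher count is near its share. The same shares stand beside the marker counts below. Saa1 and Saa2, the serum amyloid A genes, which are near-identical, were lower by -1.91 and -1.44, and Lcn2, lipocalin 2, by -1.45, while Orm2, an acid glycoprotein gene, was higher (1.08) and so was Hamp, the iron hormone hepcidin (0.31). Among 7 stellate cell and fibroblast markers 4 were lower: Col1a1 (-0.84, SE 0.14), Col3a1 (-0.82), the retinol-storing enzyme gene Lrat (-0.73) and Acta2 (-0.17, not called after quantile normalization), while Des, Dcn and Reln lay within 0.04 of 0. The stellate sums ran from 2240 to 4070 and from 2010 to 3000. Of 7 hepatocyte markers 3 were higher, led by the transcription factor gene Hnf4a (0.41), with sums from 24000 to 30600 and from 25600 to 40000, and the 8 endothelial markers had 2 higher and none lower. Markers of T and NK cells (1 higher and 1 lower of 8), B and plasma cells (2 lower of 4), neutrophils (0 called of 3), bile duct cells (0 of 4), red cells (0 of 2), fat cells (1 higher of 1) and pancreas (1 higher and 1 lower of 5) had few calls. The 1 fat cell marker is Lipe, given above with the lipid droplet genes, whose call was lost in 11 alternatives with both sexes. In the 3 lists with no call, limma's unadjusted p was below 0.05 for 1 of 4 bile duct markers and for none of the 3 neutrophil or 2 red cell markers.

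Large machines shifted slightly upward on the mean of the day. Of 65 oxidative phosphorylation genes 32 were higher and none lower, with a median of 0.11, and of 52 cytosolic ribosomal protein genes 32 were higher and 3 lower, with a median of 0.12. Among all genes tested 20.4% were higher and 23.3% lower, with a median of 0.0067. After quantile normalization the counts were 35 higher and 2 lower, and 30 and 3, and leaving out single arrays gave 28 to 39 and 26 to 37 higher. Both medians are below the median SD between arrays within a time (0.15). At ZT0, 29 oxidative phosphorylation and 26 ribosomal genes were called higher, against 10.3% of all genes. At each other time it was 2 to 4 and 1 to 5. The medians by time were largest at ZT0 (0.18 and 0.22) and smallest at ZT12 (0.01 and 0.02).

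Stress, autophagy and growth lists gave mixed calls. Among all genes 20.4% were higher, 23.3% lower and 20.7% had a diet effect that differed with time. The NAD and sirtuin calls and the lower glucocorticoid calls below are near those shares. Of 12 genes of the integrated stress response 5 were lower, among them Nupr1 (-0.56) and Sesn2 (-0.39), and Trib3 was higher (0.37). Of 14 glucocorticoid targets 5 were higher, led by Fkbp5 (0.53), and 4 lower, including Dusp1 (-0.51). Of 16 autophagy and lysosome genes 1 was higher and 6 lower, and 8 had a diet effect that differed with time. Ulk1, the kinase gene that starts autophagy, was -0.88 at ZT16 and -0.01 at ZT0. Of 14 NAD and sirtuin genes 4 were higher and 4 lower: Nnmt (0.63) and Afmid (0.53) were the highest, Sirt1 was higher by 0.17, and the mitochondrial deacylase gene Sirt5 was lower (-0.74). Of 11 cell cycle genes 6 were lower, including Mcm2 (-0.44), Ccnd1 (-0.35) and Cdkn1a, while Mki67 (-0.08) was not called.

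The same contrast in the old mice, whose arrays are all different, gave 4993 called genes (42.4%). Of the genes called in the young, 3570 were called in the old in the same direction (69.3% of the young calls and 71.5% of the old) and 7 in the opposite direction. In limma's test of the difference between ages 1109 of 11787 genes had an unadjusted p below 0.05, where chance gives about 5%. Past the adjusted threshold were 2 genes (0.017%), Gm10037 and Syce2. That count depends on the arrays: males alone gave 513 genes (342 higher and 171 lower in young minus old), females alone gave 0, and leaving out replicate numbers gave 0 to 6. Few calls do not show that the diet effect is alike at both ages. Elovl6 differed by -2.22 in young and -2.21 in old mice, Igfbp2 by 1.37 and 1.19, Pck1 by 1.72 and 1.45, G6pc by -0.59 and -0.72, Cth by 0.91 and 0.85, and Cdkn1a by -1.43 and -1.12. Socs2 stood at 1.36 and 0.82 and Cd36 at -1.66 and -0.96, with neither difference between ages called.

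**Figure D5:**
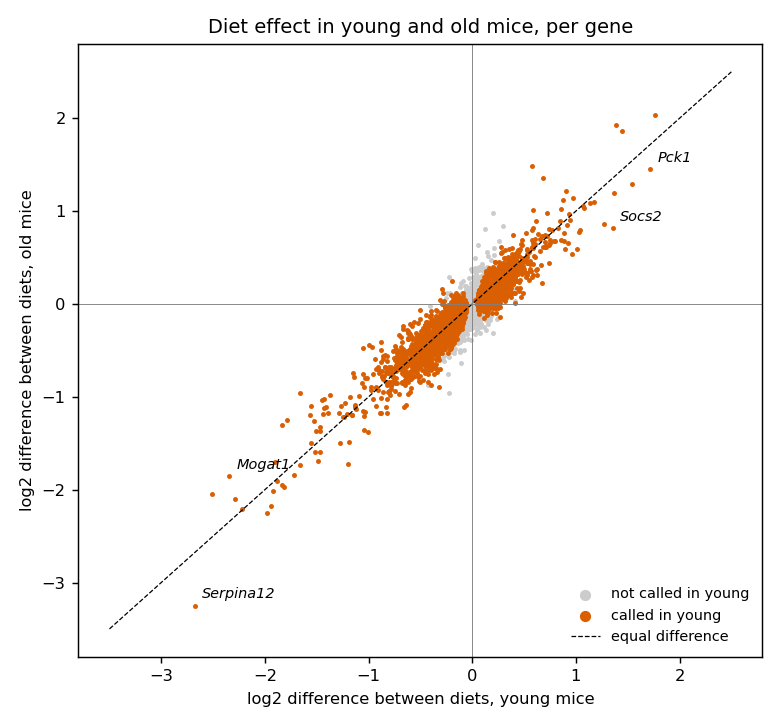
Log2 difference between restricted and normal diet in old mice (vertical) against young mice (horizontal), 1 point per gene, orange where called in the young; the dashed line marks equal differences. Serpina12 and Mogat1 lie at the low end and Pck1 at the high end in both ages. How closely the points follow the line was not tested.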

How the data were processed

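Liver RNA was amplified (WTA2), biotin-labelled and hybridised to Affymetrix arrays, 1 per sample, per the labels' protocols. The authors deposited log2 expression values, summarised by RMA per the submitters' processing notes, with a version not given in the sources used here. The values run from -1.28 to 14.2 for 21261 probe sets. They show no sex difference in sex-linked genes, and no label says how that came about. Depth does not apply to arrays, and their number limits the precision. All 103 arrays were read.

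Probe sets with exactly 1 gene symbol in the platform annotation were kept (15869, with 225 naming several and 5167 none). Symbols were updated by gene ID, except for 153 that did not match, and of several probe sets for 1 gene the one brightest on average was used (15716 genes). The lowest 25% by mean over all arrays were left out, which leaves 11787.

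In limma 3.58.1 (R 4.3.3) a mean for each of the 24 combinations of age, diet and time was fitted with sex as a covariate and an intensity trend (78 residual degrees of freedom). Diets were contrasted within each time, averaged over the 6 times, tested for a difference over times (F test), and compared with the old mice. Rhythm was a 24 h cosine curve per age and diet plus sex (90 residual degrees of freedom). Amplitude is the height of that curve above its mean, and peak time its maximum. P-values were adjusted over all 11787 genes by Benjamini-Hochberg, and the fits were tested on simulated data.

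The title set the group of each array, also for 2 young arrays whose age in weeks goes against it. No pair of arrays held identical values.

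Genes were named by rule. These were the 12 with the largest mean difference in each direction and the same sign at 6 of 6 times, the 12 with the widest range over times, the 10 with the largest difference in rhythm (predicted and sex-chromosome genes left out), clock genes, and members of 42 gene lists. The groups, lists and rule were chosen with earlier results of these data known. Motifs were counted in 9474 RefSeq promoters. Alternatives covered scaling, filter, probe set, covariates, block, sex and left-out arrays.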

Additional observations from a re-analysis of the deposited data

Results flagged for a closer look

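Within groups of 4 to 6 arrays of 1 diet and time, single arrays stood apart in 7 of 204 groups of 17 genes (3.43%; chance gives about 1 in 20). Under restriction, Slc22a26 was 8.36 in ZT12 replicate 2 (next 6.87), Enho 7.45 in ZT12 replicate 5 (next 7.14), and Fasn 6.86 in ZT12 replicate 3 (next 7.89) and 7.48 in ZT16 replicate 3 (next 8.58). On the normal diet, Igfbp2 was 9.51 in ZT16 replicate 2 (next 9.17), Hspa5 9.80 in ZT8 replicate 1 (next 9.53) and Cry1 4.93 in ZT12 replicate 3 (next 5.62).

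The diet effect differed between times of day by limma's F test in each of the following genes, given with its range over the 6 times in log2 units. The range was 3.46 for Car3 (adjusted p 0.0155), 3.32 for Hspa1b (0.0014), 3.14 for Per2 (1.09e-08) and 3.06 for Bcl6 (0.0394). It was 2.87 for Ppp1r3g (0.000861), 2.85 for Cdkn1a (0.00173), 2.69 for Mt1 (0.00648) and 2.55 for both Foxq1 (0.00455) and Sphk2 (8.55e-06). It was 2.51 for Gpcpd1 (0.00407), 2.44 for Cyp26b1 (1.34e-06) and 2.41 for Creld2 (3.11e-08).

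The diet effect in young minus that in old mice was 0.26 for the predicted gene Gm10037 (limma, adjusted p 0.0126) and -0.24 for the meiotic gene Syce2 (0.0198).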

How the results depend on the processing

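Counts of called genes stayed within 1.5 times of those reported under quantile normalization, median centring, no filter, all probe sets averaged, no sex term, only the groups compared and without the 2 arrays of conflicting age. With the lowest 50% left out, only the difference between ages moved (1 gene). Same-numbered arrays of both diets at 1 time share only a number (correlation of their deviations -0.396 to 0.167 over 24 pairs, 4 of them over 0.1). With the replicate number as a block, 4838 genes were called on the mean, 2275 by time and 1090 in rhythm difference, and no count moved by over 1.5 times. Females alone gave 878 calls at ZT0, 1037 at ZT4, 467 at ZT8, 260 at ZT16, 393 at ZT20, 550 by time, 205 in rhythm difference, 1203 and 3652 rhythmic on the normal diet and under restriction, 2036 in old mice and 0 between ages. Males alone gave 2531 on the mean, 438, 238, 36, 222, 610 and 486 from ZT0 to ZT20, 325 by time, 102 in rhythm difference, 802 and 3131 rhythmic, and 513 between ages. Fewer arrays enter both fits. Chosen after seeing the data, leaving out the 3 arrays with outlying sex-linked genes gave 1663 at ZT12 and 1 between ages, and leaving out restricted ZT0 replicate 4 as well gave 1738 and 0.

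Leaving out replicate numbers, single arrays or the 4 arrays just named gave 4180 to 5262 calls on the mean, 867 to 2732 at ZT0, 1137 to 1908 at ZT4 (up to 1854 without the fit that leaves out 4), 437 to 1118 at ZT8 (up to 1100), 1617 to 3058 at ZT12, 795 to 1550 at ZT16 and 792 to 1219 at ZT20. By time it gave 1198 to 2687, in rhythm difference 614 to 1258, for rhythm 2218 to 3889 on the normal diet and 4947 to 5842 under restriction, 3696 to 5136 in old mice and 0 to 6 between ages. The difference between ages had 6 calls without young restricted ZT0 replicate 1 or old restricted ZT20 replicate 1, and 4 without old normal-diet ZT16 replicate 4 or old restricted ZT0 replicate 3. Of 648 results for 218 single genes, quantile normalization and the replicate block each ended 11 calls and added 7, and median centring ended 4 and added 2. Acaa2, Acta2, Dnajb1 and Pgk1 lost their mean call after quantile normalization, and Dnajb1 (adjusted p 0.0511) and Grb10 (0.0525) after median centring. In at least 1 fit with both sexes 29 named genes lost their mean call, most of them only without a replicate number: Acaa2, Acta2, Ass1, C1qa, C1qc, Ccnd1, Cish, Csnk1e, Cyp51, Cyp7a1, Dgat1, Dnajb1, Fdps, Gpcpd1, Grb10, Gstm3, Hspa1b, Hspa5, Igf1, Igfbp1, Lipe, Mvd, Noct, Pdk4, Pgk1, Plin5, Sirt1, Slc25a15 and Xbp1. Males alone ended 122 calls, from fewer arrays. The sign of 1 result turned, that of Cyp51 on the mean in females alone (-0.0515, adjusted p 0.865). The cause of these changes was not tested.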
